A study of Mus musculus with 5 samples.

Results

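The 8 keratin genes Krt4, Krt13, Krt5, Krt14, Krt6a, Krt8, Krt18 and Krt19, which mark airway and squamous epithelium, were followed over 5 arrays of RNA labelled as murine lung. A probe set, the set of short probes that reads a transcript, was taken as a member when the platform annotation gave it a single gene symbol and that symbol was one of the 8. This gave 14 probe sets for the 8 genes, of 12422 probe sets and 8251 named genes in all. The animals were A/J mice. There were 2 control arrays, of mice with saline instilled intratracheally, and 3 arrays of mice instilled in that way with IL-13, the type 2 cytokine known for goblet cell change in airways. A number without a unit stands in each title, and an array is called here by treatment and number: saline 6 and saline 48, then IL-13 6, IL-13 18 and IL-13 48, an order kept below wherever values follow each other. Age, sex, dose, time after treatment and the number of animals behind an array are not given in the labels, and each combination of treatment and number is a single array. Nothing states that arrays came from separate animals, so a p-value here measures only the spread between these arrays. For IL-13 against saline that spread includes the title number, which differs within each treatment. Arrays of a treatment also differed in tissue markers, as given below, and part of the spread may be technical.

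Keratins are the intermediate filament proteins of epithelial cells. A filament needs a type I (acidic) and a type II (basic) keratin, so the genes are expressed in pairs that name the kind of epithelium. Krt5 (type II) and Krt14 (type I) are the pair of basal cells in stratified epithelia and in the pseudostratified lining of the trachea. Krt4 (type II) and Krt13 (type I) are the pair of suprabasal cells in moist squamous epithelia such as the oesophagus and mouth, and are also found in suprabasal cells of the airway lining. Krt6a (type II) is induced in wounded and hyperproliferative epithelium together with Krt16 and Krt17. Krt8 (type II) with Krt18 and Krt19 (both type I) form the filaments of simple epithelia, including airway luminal cells, alveolar epithelium and glands. The type I genes Krt13, Krt19 and Krt14 lie in a run of keratin genes on chromosome 11 and the type II genes on chromosome 15, with Krt18 the exception that lies directly beside Krt8 on chromosome 15 in the RefSeq gene table (assembly GRCm38.p6). In that table Krt6a lies between Krt6b and Krt5.

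The labelled tissue was checked on its markers, using intensities scaled by array. The club cell secretoglobin Scgb1a1 read 22024 to 31024 over the 5 arrays and the club cell cytochrome Cyp2f2 read 9162 to 12587. The surfactant gene Sftpc, which defines alveolar type II cells, gave 2615 and 194 in the saline arrays, then 257, 17179 and 300.5 in the IL-13 arrays. The arrays therefore differed widely in this alveolar transcript, and its part in the keratin values was not tested. The 11 salivary gland genes measured summed to 117191 on saline 6 and to 1428 to 1748 on the other 4 arrays. All arrays carried skeletal muscle genes (10 genes, summed level 100559 to 136024) and thyroid and parathyroid genes (4 genes, 28012 to 37982). In bulk RNA of this kind, fewer cells of a type and less RNA per cell cannot be told apart. Because saline 6 stood apart, the value without it is given beside each difference that it moved by more than 1.5 times among the keratins and genes named in the comparison of treatments, and both controls are given for the pairs where the choice matters.

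Upstream sequence is shown for Krt13, the keratin whose 3 probe sets all separated the treatments, and for the neighbouring partners Krt8 and Krt18, whose differences between treatments had opposite signs. Each line gives the 250 bases before the RefSeq transcription start (GRCm38.p6, the more upstream of the 2 starts listed for Krt13), 5′ to 3′ in the direction of transcription, and capitals mark matches to any of 6 motifs searched on both strands.
Krt13, chr11:100121567-100121816, minus strand: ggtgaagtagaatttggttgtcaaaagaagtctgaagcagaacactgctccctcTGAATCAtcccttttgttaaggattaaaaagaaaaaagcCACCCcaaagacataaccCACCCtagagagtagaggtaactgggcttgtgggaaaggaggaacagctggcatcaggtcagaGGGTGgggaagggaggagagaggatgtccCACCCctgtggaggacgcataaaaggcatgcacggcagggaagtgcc
Krt8, chr15:102004343-102004592, minus strand: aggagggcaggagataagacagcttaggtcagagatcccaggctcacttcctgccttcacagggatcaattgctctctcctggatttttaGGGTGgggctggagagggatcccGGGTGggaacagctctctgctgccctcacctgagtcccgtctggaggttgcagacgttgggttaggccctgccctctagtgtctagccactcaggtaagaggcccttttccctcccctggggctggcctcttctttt
Krt18, chr15:102027966-102028215, plus strand: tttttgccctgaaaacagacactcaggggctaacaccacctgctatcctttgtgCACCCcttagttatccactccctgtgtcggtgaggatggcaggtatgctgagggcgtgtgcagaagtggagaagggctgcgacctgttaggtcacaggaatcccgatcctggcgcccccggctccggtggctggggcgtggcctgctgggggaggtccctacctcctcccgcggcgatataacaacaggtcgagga

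The Krt13 window held 4 matches to CACCC, the letters that factors of the KLF family bind. The Krt8 window held 2 such matches and the Krt18 window 1. Among the 32851 windows of this length in the table, 52.0% held that motif at least once. The Krt13 window also held 1 match to the AP-1 motif, spelled TGANTCA, which 6.75% of windows held. The other motifs searched had no match in these 3 windows. They were the TATA box TATAAA, held by 12.4% of windows, and the CCAAT box, held by 33.85%. The last were the STAT palindrome at the STAT6 spacing, held by 5.85%, and at the usual STAT spacing, held by 7.02%. The window of the other Krt13 start held 2 AP-1, 1 KLF and 1 CCAAT match. These are descriptions of letters, not of binding. Of the 8 genes, 5 had an entry in the promoter table, and Krt4, Krt6a and Krt19 were not among them.

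Over the 14 probe sets the keratins fell into a bright and a dim set (plot of the 14 probe sets by array). Tests were run on probe sets that exceeded 210.2, the pooled 40th percentile, on at least 2 arrays. That left 7811 probe sets, among them 10 of the keratins' 14, from 6 of the 8 genes. Of these 10, 9 exceeded that level on all 5 arrays and the other on 4, so none entered through a single treatment. The 4 probe sets that were not tested are those of Krt5 and Krt14, 162322_r_at of Krt13 and 162191_at of Krt18.

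**Figure D1:**
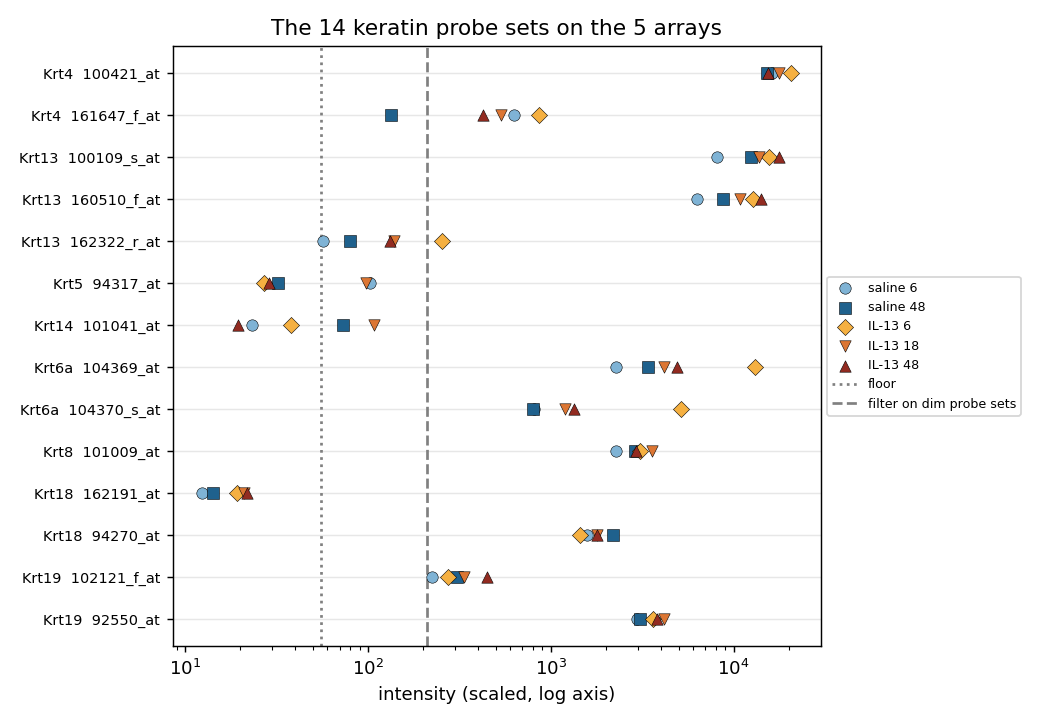
Intensity of each keratin probe set (rows, log axis) on each of the 5 arrays (symbols, 1 value per array). The dotted line is the floor at 55.3 and the dashed line the filter at 210.2. Both Krt6a probe sets show IL-13 6 far to the right of the other 4 arrays, and the single probe sets of Krt5 and Krt14 lie below the filter on every array.

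Krt13, the type I keratin of suprabasal squamous cells, was higher on every IL-13 array than on either saline array in all 3 of its probe sets. On 100109_s_at it gave 8144 (saline 6), 12449 (saline 48), 15554 (IL-13 6), 13779 (IL-13 18) and 17700.1 (IL-13 48). On 160510_f_at it gave 6335 and 8749 in the saline arrays, then 12718, 10862 and 14086 in the IL-13 arrays in the same order of arrays. Both probe sets ranked the 5 arrays alike, from saline 6 through saline 48, IL-13 18 and IL-13 6 to IL-13 48. The log2 difference of IL-13 from saline was 0.63 (SE 0.24, adjusted p 0.529) on the first and 0.75 (SE 0.22, adjusted p 0.430) on the second, so neither passed. The dim probe set 162322_r_at gave 57.0 and 79.3 in the saline arrays, then 255, 139 and 132 in the IL-13 arrays. Endings other than a plain at (s, f, r) flag probes with looser specificity. Part of the Krt13 separation lay between the saline arrays themselves, which differed 1.53-fold and 1.38-fold. Without saline 6 the log2 differences of the first and second probe sets were 0.33 and 0.51. IL-13 18 exceeded the higher saline array by only 1.11-fold and 1.24-fold.

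Krt4, the type II partner of Krt13, did not separate the treatments. Its probe set 100421_at gave 16286 (saline 6), 15198 (saline 48), 20694 (IL-13 6), 17759 (IL-13 18) and 15406 (IL-13 48). The groups overlapped, since saline 6 exceeded IL-13 48, and highest over lowest was only 1.36-fold. The log2 difference was 0.18 (SE 0.19, adjusted p 0.813). The second Krt4 probe set, 161647_f_at, gave 633 and 133 in the saline arrays, then 858, 533 and 424 in the IL-13 arrays. It disagreed with the first mainly through the low value of saline 48. Its log2 difference of 1.00 (SE 0.65, adjusted p 0.695) became -0.13 without saline 48 and 2.12 without saline 6.

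Krt5 and Krt14, the basal cell pair, were dim throughout. Krt5 (94317_at) gave 103 (saline 6), 32.2 (saline 48), 27.0 (IL-13 6), 98.1 (IL-13 18) and 28.8 (IL-13 48). Krt14 (101041_at) gave 23.1 and 72.7 in the saline arrays, then 38.0, 108 and 19.5 in the IL-13 arrays. Each lay below the floor of 55.3 on 3 of 5 arrays, no array exceeded 210.2, and the groups overlapped, so no fold is given. The probe set of Krt15, another basal keratin, read 6.48 to 10.1. Trp63, the transcription factor that defines basal cells, was not dim on its probe set (103810_at): it read 400 on saline 6 and 788 to 915 on the other 4 arrays. Each of Krt5, Krt14 and Krt15 had a single probe set, so a poor probe set and a low transcript level cannot be told apart here.

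Krt6a, the wound-induced type II keratin, was the member that varied most with both of its probe sets in accord. On 104369_at it gave 2284 (saline 6), 3413 (saline 48), 13137 (IL-13 6), 4167 (IL-13 18) and 4889 (IL-13 48). On 104370_s_at it gave 808 and 800.1 in the saline arrays, then 5158, 1202 and 1339 in the IL-13 arrays. On each probe set the lowest IL-13 array exceeded the higher saline array, and IL-13 6 stood 2.69-fold and 3.85-fold above the next highest array. Against saline 6, IL-13 6 was 5.75-fold and 6.39-fold higher. The pair at 48 differed by 1.43-fold and 1.67-fold. The log2 difference of IL-13 from saline was 1.21 (SE 0.50, adjusted p 0.542) and 1.33 (SE 0.61, adjusted p 0.580), where the SE holds the unequal IL-13 arrays. Leaving out IL-13 6 gave 0.69 and 0.66, while leaving out saline 6 gave 0.92 and 1.34.

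Whether the IL-13 difference of Krt6a was larger at number 6 than at 18 and 48 was tested with an interaction term, chosen after the values were seen. The IL-13 effect at 6 exceeded that at the other numbers by 2.12 (SE 0.32) on 104369_at and by 2.01 (SE 0.30) on 104370_s_at, on the log2 scale. The adjusted p was 0.323 for both, with 1 residual degree of freedom, so neither passed. No saline array had number 18, so saline 48 was the only control for IL-13 18 and IL-13 48. That 1 degree of freedom is the gap between IL-13 18 and IL-13 48. The residual spread of a probe set therefore holds none at number 6 and none between saline arrays. No probe set passed this test, 0% of 7811, while 10.2% had an unadjusted p under 0.05. Among the 10 keratin probe sets 3 had one, both of Krt6a (0.0027 and 0.0026) and Krt4 161647_f_at (0.017), the last with the opposite sign (-1.40, SE 0.36).

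Other wound-associated keratins followed Krt6a in part. Krt6b, the near-identical neighbour of Krt6a whose probes may take up its transcript, gave 1036 and 895 in the saline arrays, then 1992, 1238 and 1265 in the IL-13 arrays, without overlap. Krt17 (92862_f_at) gave 444 (saline 6), 831 (saline 48), 1587 (IL-13 6), 779 (IL-13 18) and 818 (IL-13 48). Its high value was therefore on IL-13 6, while the other IL-13 arrays lay below saline 48. The other 2 Krt17 probe sets were also highest on IL-13 6, at 924 and 392. Krt16 was dim, at 85.5 on IL-13 6 and 6.91 to 37.9 elsewhere. Krt16 was too dim to be tested. Krt6b (log2 difference 0.60, adjusted p 0.549) and this probe set of Krt17 (0.72, adjusted p 0.642) did not pass, and without saline 6 Krt17 stood at 0.27.

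The tested genes nearest to Krt6a in pattern were named by the root mean square difference over the 5 arrays between log2 profiles, each centred on its own mean. For 104369_at they were Sprr1a (0.21), a precursor of the cornified envelope, Serpinb2 (0.25), a protease inhibitor, the eosinophil chemokine Ccl11 (0.25), Anxa8 (0.30), an annexin of stratified epithelium, and Krt17 (0.33). For 104370_s_at they were Ccl11 (0.12), the lipoxygenase gene Alox15 (0.33), the surface protein gene Psca (0.38), Serpinb2 (0.41) and Sprr1a (0.42). Ccl11 gave 211 and 227 in the saline arrays, then 1399, 394 and 353 in the IL-13 arrays. Sprr1a gave 796 and 1351 in the saline arrays, then 3801, 1764 and 1519.5 in the IL-13 arrays. The likeness is a description over 5 arrays and the genes were selected by it.

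**Figure D2:**
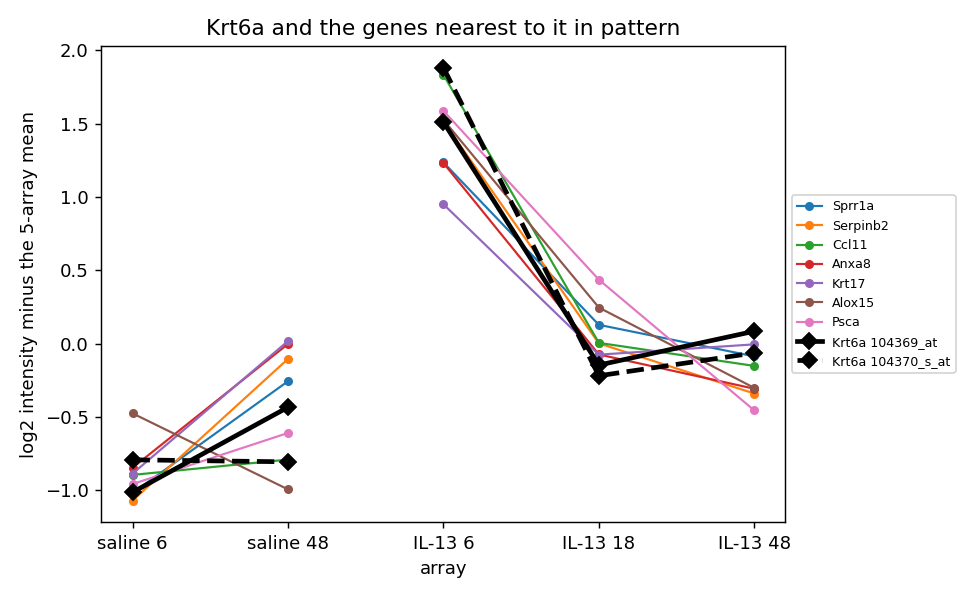
Log2 intensity minus its mean over the 5 arrays for both Krt6a probe sets (black) and the 7 genes nearest to either in pattern (colours), 1 value per array, with the saline and IL-13 arrays joined separately. Every profile peaks on IL-13 6.

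The simple epithelial keratins differed little between arrays. Krt8 (101009_at) gave 2260 (saline 6), 2900.4 (saline 48), 3076 (IL-13 6), 3582 (IL-13 18) and 2929 (IL-13 48). The groups did not overlap, but IL-13 48 exceeded saline 48 by only 1.01-fold, and the log2 difference was 0.31 (SE 0.20, adjusted p 0.680). Without saline 6 it was 0.13, and without saline 48 it was 0.49. Krt18 (94270_at), its type I partner, gave 1588 and 2199.9 in the saline arrays, then 1449.8, 1782 and 1785 in the IL-13 arrays. Among the 10 tested probe sets of the 8 keratins it was the only one with a lower mean after IL-13, at a log2 difference of -0.17 (SE 0.22, adjusted p 0.849). The groups overlapped and both pairs were lower with IL-13, 0.913 times at 6 and 0.811 times at 48. The sign at 48 depended on the control, since against saline 6 the log2 ratio of IL-13 48 was 0.17. Without saline 6 the log2 difference between treatments was -0.40, and without saline 48 it was 0.068. The other Krt18 probe set, 162191_at, read 12.4 to 21.7 and lay below the floor on all 5 arrays.

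Krt19, a type I keratin of simple epithelia without a fixed partner, separated the treatments on the brighter of its probe sets. On 92550_at it gave 2969 (saline 6), 3072 (saline 48), 3643 (IL-13 6), 4154 (IL-13 18) and 3833 (IL-13 48). The treatments did not overlap, the pairs differed by 1.23-fold at 6 and 1.25-fold at 48, and the saline arrays themselves differed by 1.03-fold. The log2 difference was 0.36 (SE 0.16, adjusted p 0.577), and leaving out any array gave 0.31 to 0.40. The dimmer 102121_f_at gave 223 and 306 in the saline arrays, then 275, 336 and 451 in the IL-13 arrays. It overlapped, since IL-13 6 fell between the saline arrays, and its log2 difference was 0.41 (SE 0.27, adjusted p 0.697). Without saline 6 that difference was 0.18, and IL-13 6 lay below saline 48 (log2 ratio -0.16).

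Over all members, 9 of the 10 tested probe sets, which come from 6 genes, had a higher mean after IL-13 and 1 a lower one. Over all 5983 genes tested, 3247 had a higher mean. The median log2 difference of the 10 was 0.52, beside 0.04 over all 7811 probe sets. None of the 10 passed the limma test in either direction. Over all probe sets 0.0128% passed as higher and 0.0384% as lower. At an unadjusted p under 0.05 both brighter Krt13 probe sets were higher (0.036 and 0.013) and none was lower, beside 5.29% and 3.97% of all. All IL-13 arrays exceeded both saline arrays for 6 of the 10, from Krt13, Krt6a, Krt8 and Krt19, beside 14.8% of all tested probe sets. None of the 10 lay wholly below, beside 11% of all. Probe sets of a gene share its transcript, so these 6 stand for 4 genes.

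**Figure D3:**
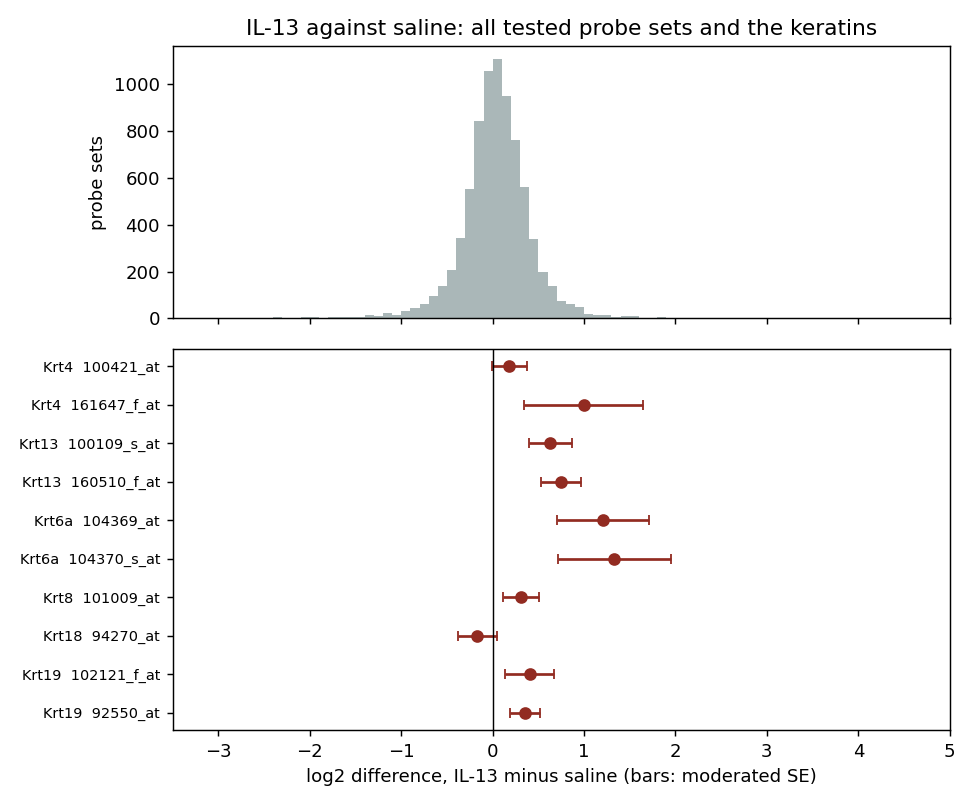
Top, histogram of the log2 difference of IL-13 from saline over all 7811 tested probe sets. Bottom, the same difference for the 10 tested keratin probe sets, with bars of 1 moderated SE. Krt18 94270_at, at -0.17, is the only one left of 0.

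Without saline 6, all IL-13 arrays exceeded saline 48 for 8 of the 10 keratin probe sets, beside 27.7% of all tested. The median log2 difference of the 10 was then 0.33, beside -0.01 over all 5983 genes tested. Again 9 were higher and 1 lower, beside 2927 higher and 3056 lower of those genes. Saline 48 alone then stood for saline, and the part of salivary gland transcripts in the keratin values was not tested. Of the 8, Krt4 100421_at and Krt8 lay only narrowly above saline 48. Their lowest IL-13 values, both on IL-13 48, were 15406 against 15198 and 2929 against 2900.4. Krt4 161647_f_at was among the 8 with a low saline 48 value of 133.

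In the pair at 6, IL-13 6 was at least 2-fold above saline 6 for 3 of the 10, both Krt6a probe sets and Krt13 160510_f_at (2.01-fold), beside 2.88% of all tested, and at least 2-fold below for none, beside 3.15%. In the pair at 48, IL-13 48 was at least 2-fold above saline 48 for Krt4 161647_f_at (3.19-fold), beside 0.935% of all, and below for none, beside 1.69%. That Krt4 value rests on the low reading of saline 48, and against saline 6 IL-13 48 was lower (-0.58 on the log2 scale). The count at 6 rests in part on saline 6. With saline 48 as control, IL-13 6 stood at 0.54 on the log2 scale for Krt13 160510_f_at, below 2-fold. For Krt6a it stood at 1.94 on 104369_at and 2.69 on 104370_s_at, and Krt4 161647_f_at then reached 2.69. Single arrays allow no test of these pairs.

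**Figure D4:**
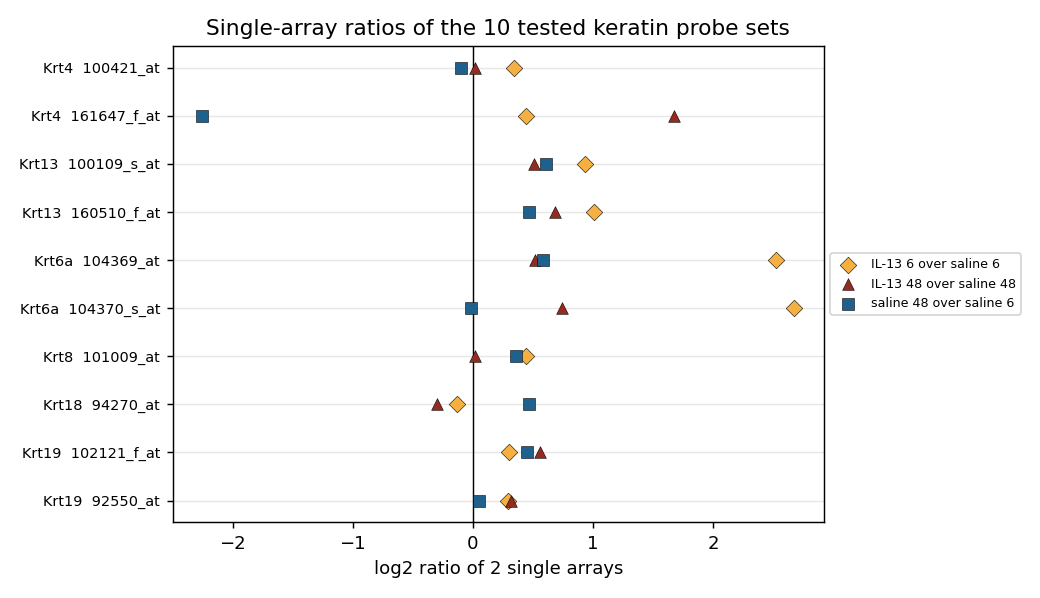
Log2 ratios between single arrays for the 10 tested keratin probe sets: IL-13 6 over saline 6 (diamonds), IL-13 48 over saline 48 (triangles) and, as the background between controls, saline 48 over saline 6 (squares). The Krt6a probe sets alone exceed 2 on this scale, both at number 6. Between the controls, Krt4 161647_f_at lies far to the left of 0, since saline 48 was 0.210 times saline 6. For Krt13 100109_s_at the ratio between the saline arrays is larger than that of the pair at 48.

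Arrays of number 6 were also compared with those of 18 and 48, with treatment in the model. No keratin probe set passed, and neither did any other, 0% of 7811. The median log2 difference of the 10 was -0.14, beside -0.04 over all, with 4 higher and 6 lower at number 6. Of the 10, Krt4 161647_f_at alone had an unadjusted p under 0.05 (1.45, SE 0.35, adjusted p 0.464), beside 8.91% of all probe sets. Krt18 94270_at (-0.37, SE 0.16) and Krt19 102121_f_at (-0.48, SE 0.20) were lower at number 6, with adjusted p of 0.561 and 0.557.

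Of the other keratins, 25 genes were on the array and 15 were tested. None passed in either direction, 10 had a higher and 5 a lower mean after IL-13, and the median log2 difference was 0.16, beside 0.03 over all genes tested. Beside Krt6b and Krt17 the largest were the hair keratins Krt33b and Krt81. Krt33b (97814_at) gave 239 and 321 in the saline arrays, then 441, 659 and 518 in the IL-13 arrays. Its log2 difference was 0.94 (SE 0.24, adjusted p 0.362). A dimmer, untested Krt33b probe set, 162106_f_at, overlapped. It gave 62.6 and 126 in the saline arrays, then 112, 179 and 90.4 in the IL-13 arrays. Krt81 (96782_at) gave 1272 and 788 in the saline arrays, then 176, 693 and 987 in the IL-13 arrays. Its low value was therefore on IL-13 6 (log2 difference -1.02, SE 0.71, adjusted p 0.716, and -0.68 without saline 6). The other Krt81 probe sets lay below the floor on all arrays. Krt7, a type II keratin of simple epithelia, gave 1519 and 1549.7 in the saline arrays, then 2600.2, 1727 and 1242 in the IL-13 arrays, with overlap. The epidermal keratin Krt10 (94321_at) read 242 to 454 and its partner Krt1 87.4 to 318, and both overlapped.

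Genes of squamous differentiation, some of which build the cornified envelope above the keratin filaments, read higher after IL-13 in most cases. Of 18 tested, the mean was higher for 16 and lower for 2, 11 had all IL-13 arrays above both saline arrays, and the median log2 difference was 0.79. Over all 5983 genes tested the mean was higher for 3247, 843 had all IL-13 arrays above both saline arrays, and the median was 0.03. None of the 18 passed the limma test. The largest were Sprr2b (2.09, SE 0.59), the stratifin gene Sfn (1.09, SE 0.40), Sprr1a (1.06, SE 0.44) and Sprr2i (0.97, SE 0.37). Their adjusted p ran from 0.412 to 0.534. Sprr2b, Sprr2e, Sprr2i and Sprr2k were read on f_at probe sets that related small proline-rich genes may share, so their counts may repeat a signal. The 2 lower genes were Klk8 (-0.07) and Sprr1b (-0.01), and Sprr1b was bright at 11309 to 15419. Both turned sign without saline 6, to 0.015 for Klk8 and 0.18 for Sprr1b. Sfn gave 939 and 2409 in the saline arrays, then 2848, 2930 and 3952 in the IL-13 arrays, the highest on IL-13 48. Without saline 6 the list's median was 0.46, with 17 of 18 higher, while Sfn stood at 0.41 and Sprr1a at 0.68. The lower gene was then Cstb (-0.09). The lists for these comparisons were written with earlier results of these data known, among them Sprr2b, so they are no independent evidence of a direction.

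Genes that anchor keratin filaments were also described by their counts, and no difference between lists was tested. Of 17 tested genes of desmosomes, hemidesmosomes and plakins 14 had a higher mean and the median log2 difference was 0.28, but without saline 6 the median was 0.00 with 9 higher and 8 lower. Desmocollin 2 (Dsc2) gave 417 and 823 in the saline arrays, then 1218, 974 and 1295 in the IL-13 arrays, without overlap (0.98, SE 0.31, adjusted p 0.469). Perp, a desmosomal protein, gave 3540 and 6373 in the saline arrays, then 8230.1, 5582 and 7523 in the IL-13 arrays (0.56, SE 0.30). Desmoglein 2 (Dsg2, -0.46) and the hemidesmosomal collagen Col17a1 (0.42) were the next in size. Without saline 6 Dsc2 stood at 0.49, Perp at 0.14 and Col17a1 at 0.03. Junction and other genes of simple epithelium gave 12 of 12 higher and a median of 0.28 with all arrays. Without saline 6 they gave 5 of 12 higher and a median of -0.05. Their largest were Cldn7 (0.53), Muc1 (0.46), Cdh1 (0.39) and Prom1 (0.39), and without saline 6 Cldn7 stood at -0.10 and Muc1 at 0.29. The 13 epithelial transcription factors tested were all higher (median 0.41), and without saline 6 8 were, with a median of 0.03. They were led by the goblet cell factor Spdef (1.58, with saline 6 below the floor), Pitx1 (0.57), Sox2 (0.50) and Klf4 (0.46). Without saline 6 Spdef stood at 0.52, and IL-13 48 (229) lay below saline 48 (242). Sox2 then stood at 0.05 and Klf4 at 0.03. No gene of these 3 lists passed.

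Summed levels of marker lists went in different directions, and their part in the keratin values was not tested. Markers of oesophageal and oral squamous epithelium, 8 measured beside the members, summed to 6190 and 8371 with saline and to 11407 to 13239 with IL-13. Of its 6 tested genes 5 had all IL-13 arrays above both saline arrays, beside 843 of all 5983 genes tested. Among the 5, Ly6d, the cornified envelope gene Sprr3 and Mal are also in the squamous differentiation list. Krt6b, whose probes may take up Krt6a transcript, is another of the 5. The 2 lists are therefore not separate evidence. Krt15 lay below the floor on all arrays. Airway basal cell markers, 3 measured, summed to 1432 and 2250.1 with saline and 2047 to 2315 with IL-13. Epidermal markers, 8 measured, summed to 2439 and 2800.1 with saline and 3609 to 3809 with IL-13. Much of that rise lay in loricrin (Lor), the brightest of them, which is also in the squamous differentiation list. Of the 5 epidermal markers tested, 2 had all IL-13 arrays above both saline arrays, while Krt1, Krt2 and Krt10 overlapped. Mesothelial markers, 5 measured, summed to 6130.4 and 9231 with saline and 7762 to 8690.3 with IL-13, and thymic epithelial markers, 6 measured, to 2033 and 2165 with saline and 1319 to 1931 with IL-13. Goblet cell markers, 8 measured, summed to 22828 and 24495 with saline and 56164 to 74242 with IL-13, with Muc5ac below the floor on all arrays. Thymocyte markers, 11 measured, ran the other way, from 14292 and 19542 with saline to between 4361 and 9995 with IL-13. White and brown fat markers, 7 measured, were also lower, at 39868 and 21107 with saline and 18466 to 18972 with IL-13. Sums of lung epithelium, ciliated cell and heart atrium markers overlapped between treatments.

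**Figure D5:**
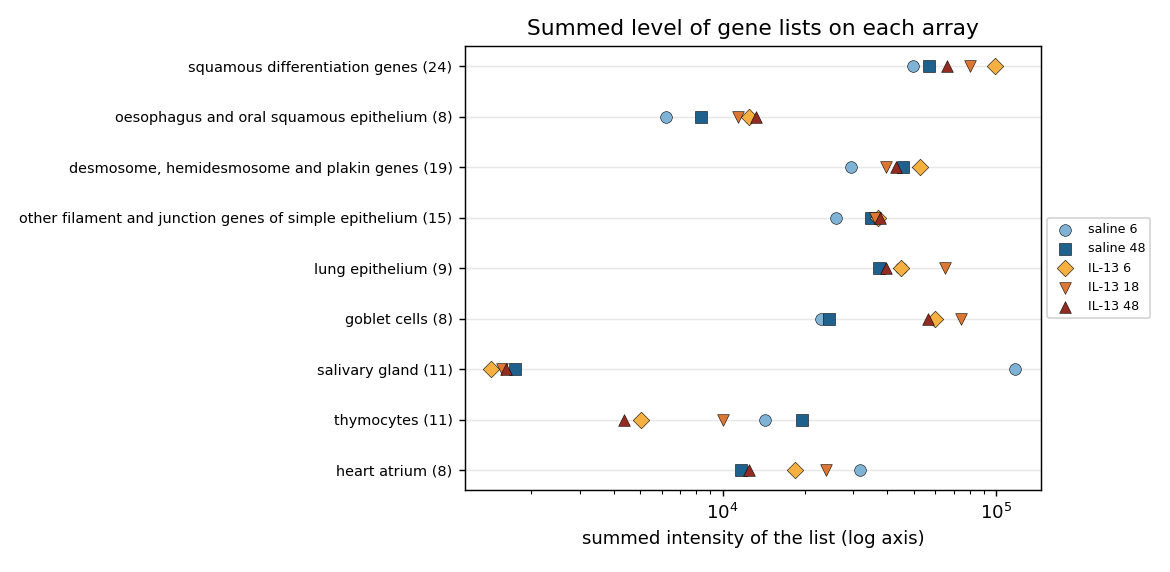
Summed scaled intensity of 9 gene lists (rows, number of genes measured in brackets, log axis) on each of the 5 arrays (symbols). Both squamous lists, which share genes such as Sprr3, separate the 3 IL-13 arrays from the 2 saline arrays. Saline 6 alone is high in the salivary gland list. It is lowest in the desmosome list and in the list of filament and junction genes of simple epithelium.

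The genes nearest in pattern to Krt13 came from several kinds of tissue. For 100109_s_at they were the protease gene Capn2 (root mean square log2 difference 0.05), the fibrillar collagen gene Col3a1 (0.05), Plxna2 (0.06), Gdpd3 (0.07) and the dermal matrix gene Dpt (0.08). For 160510_f_at they were Tmem183a (0.06), Reep1 (0.09), Capn2 (0.09), Calm4 (0.09), a calmodulin-like protein of epidermis, and Plxna2 (0.10). Col3a1 gave 5199 and 8349 in the saline arrays, then 10586, 9161 and 10869.8 in the IL-13 arrays, which is the array order of Krt13. Nearest to Krt19 102121_f_at were Snx12 (0.04), Mycl (0.06), Emcn (0.07), Rgs11 (0.07) and Hsp90aa1 (0.07). Nearest to Krt4 161647_f_at were Ssc4d (0.24), Sac3d1 (0.30), Rpl41 (0.33), Fjx1 (0.36) and Mapkbp1 (0.36), and Rpl41 likewise fell from 13013 on saline 6 to 1708 on saline 48.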

How the data were processed

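The authors deposited intensity values on a linear scale, with a value for each of 12488 probe sets on 5 Affymetrix-format mouse arrays. Which software, background correction and scaling target made them is not given in the sources used. The deposited values have a 2% trimmed mean of 800.39 to 800.47 on every array, so they had been scaled. Without 66 control probe sets, 12422 were kept. The platform annotation gave 1 symbol for 10833, several for 396 (named for none) and none for 1193, and 10817 symbols were updated through the gene number.

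Each array was brought to the same 2% trimmed mean. The pooled 20th percentile (55.3) served as a floor before log2. Differences, moderated SE and two-sided p-values came from lmFit and eBayes of limma 3.58.1 (R 4.3.3) over all 7811 probe sets, adjusted by Benjamini-Hochberg, threshold 0.05, with 3 residual and 3.46 prior degrees of freedom for treatment. The comparison by title number had treatment as a term. The fit was tested on simulated data. A fold between single arrays counted at 2-fold or more where the brighter value exceeded 343. In gene lists the brightest tested probe set stands for a gene. The rule for named genes took every member probe set, up to 4 genes a list by size of difference and the 5 nearest patterns. Genes named beyond it (Krt7, Krt1, Krt10, Krt16, Trp63 and the tissue markers) were chosen after their values were seen. Members and lists were chosen with earlier results of these data known. Alternatives covered scaling, floor, filter, variance model, title number as a block, each array left out and the control array of a pair. Figures were drawn with matplotlib 3.10.9. The number of arrays limits the precision.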

Additional observations from a re-analysis of the deposited data

How the results depend on the processing

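The count of 4 probe sets that passed for IL-13 against saline, none of them a keratin, fell to 0 with the floor at the 10th or the 40th percentile, without a filter, with trend and robust settings and with title number as a replicate block over the 4 arrays of 6 and 48, and to 1 with the filter at the 60th percentile. Leaving out 1 array gave 0 to 13, with 13 without saline 48. The count by title number was 0 under every setting that kept all arrays, and 0 to 4 leaving out 1 array, with 4 without IL-13 6. In these cases the cause was not tested. A 3-fold threshold left 149 probe sets apart in the pair at 6 and 70 in the pair at 48, of 471 and 205 at 2-fold.

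No keratin probe set passed under any of these settings, and scaling, floor, filter and the block changed no sign for IL-13 against saline. The number of keratin probe sets with all IL-13 arrays above saline was 6 to 8 leaving out 1 array. Leaving out 1 array turned the sign for Krt4 161647_f_at (-0.13 to 2.12) and Krt18 94270_at (-0.40 to 0.068). By title number it did so for Krt13 160510_f_at (-0.47 to 0.040) and Krt6a 104369_at (-0.58 without IL-13 6, up to 1.54), and quantile normalization did so for Krt4 100421_at (-0.088). With the other saline array as control, the pair at 48 turned sign for Krt4 161647_f_at (-0.58), Krt4 100421_at (-0.08) and Krt18 94270_at (0.17), and the pair at 6 for Krt19 102121_f_at (-0.16). Exchanging the control shifts the pairs of a probe set in opposite directions by the same amount, the size of the log2 ratio of the saline arrays. Shifts at 6 and at 48 are therefore a single result. Each treatment and number was 1 array, so no spread between replicates stands beside these shifts. A treatment with 1 array left is assumed to vary like the other. Dim probe sets (Krt5, Krt14, 1 each of Krt13 and Krt18) are limited by signal over background.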

Other observations

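Tgm3, a transglutaminase that crosslinks the cornified envelope, did not share the peak of Krt6a on IL-13 6. It gave 503 (saline 6), 793 (saline 48), 547 (IL-13 6), 1362 (IL-13 18) and 1976 (IL-13 48), so IL-13 18 and IL-13 48 exceeded the other 3. Sprr3, another squamous gene, was also highest on IL-13 48, at 3854 against 1416 and 2147 with saline. Loricrin (Lor, 92624_r_at), the main protein of the epidermal cornified envelope, gave 1083 and 1207 in the saline arrays, then 1832, 2124 and 2113 in the IL-13 arrays, without overlap. Its log2 difference was 0.82 (SE 0.17, adjusted p 0.311). Involucrin (Ivl), also of that envelope, lay below the floor on all 5 arrays.

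Plec, the plakin that links keratin filaments to hemidesmosomes, gave 722 (saline 6), 3656 (saline 48), 4321 (IL-13 6), 1222 (IL-13 18) and 1723 (IL-13 48). Its pair ratio was 5.98 at 6 and 0.471 at 48, the widest spread among the tested genes of the list that it belongs to. These genes were chosen after their values were seen.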
